A study of Homo sapiens with 32 samples.

Results

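The regions described here are m6A peaks that appeared in the list labelled RKO METTL3 knockdown and overlapped no peak of any other list on the same strand. They numbered 12371 of the 34015 regions of that list, or 36.4% (95% Wilson interval 35.9% to 36.9%, counting error only), and of 87085 merged regions in the whole series. They were chosen by the called peaks themselves, for presence in this list and absence from the others. Their absence elsewhere is therefore not a finding, and no value below was tested. The 4 human cancer cell lines were RKO and LOVO, which are colorectal, and OVCAR8 and SKOV3, which are ovarian. In each line, cells labelled METTL3 knockdown were set against control cells labelled wild type, with 2 MeRIP and matched input libraries per group. The ovarian sample titles and the names of the RKO and LOVO lists call the controls shControl and the knockdowns shMETTL3. RKO and LOVO each had 1 peak list per group and the ovarian lines 1 per MeRIP library, 12 lists in all. Nothing in the labels says that replicates were separate cultures, and the hairpin or clone used is not stated there.

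N6-methyladenosine (m6A) is a base modification found on nascent and mature RNA and laid down by a complex whose catalytic subunit is METTL3. It occurs mostly at adenosines in a DRACH context, of which GGAC is the most familiar core, and it affects splicing, export, translation and decay. In MeRIP-seq, RNA fragments are pulled down with an antibody to m6A and regions enriched over input are called as peaks. Chromatin-associated RNA, the fraction used here, holds much unspliced RNA, so peaks can lie in introns and in unstable non-coding RNAs. A peak needs a transcript that is present as well as methylated, and a new peak on its own cannot tell these apart.

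Among the 25 genes with most regions were the RNA-editing family member ADARB2, the adhesion molecule FAT3, the AMPA receptor subunit GRIA1 and the receptor phosphatase PTPRZ1, but also the growth factor receptor EGFR and the procollagen protease ADAMTS3. Promoter windows are shown for 6 of the named genes because a high-scoring region overlapped a window at a gene start on the same strand. SOX2 also lies inside SOX2-OT on that strand, and the GRIA1 window belongs to a start inside the annotated gene body. They are RefSeq sequences of GRCh38.p14, 5′ to 3′ on the gene's strand, from 250 bases before to 50 after a gene start, and capitals mark GGAC on that strand.
SOX2, chr3:181711675-181711974, plus strand: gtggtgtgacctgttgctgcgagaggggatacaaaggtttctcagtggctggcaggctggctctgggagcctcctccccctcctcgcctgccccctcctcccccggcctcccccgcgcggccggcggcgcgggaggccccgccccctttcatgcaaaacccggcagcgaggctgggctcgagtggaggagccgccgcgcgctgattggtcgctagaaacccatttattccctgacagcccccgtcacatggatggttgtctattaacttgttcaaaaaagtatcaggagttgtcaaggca
PTPRZ1, chr7:121872911-121873210, plus strand: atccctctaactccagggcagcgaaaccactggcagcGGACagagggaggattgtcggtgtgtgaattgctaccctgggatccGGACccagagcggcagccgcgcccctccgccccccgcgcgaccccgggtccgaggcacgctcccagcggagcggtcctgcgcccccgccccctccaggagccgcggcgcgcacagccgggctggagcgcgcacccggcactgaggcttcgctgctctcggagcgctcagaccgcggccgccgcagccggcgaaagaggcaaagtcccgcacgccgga
RTN1, chr14:59870727-59871026, minus strand: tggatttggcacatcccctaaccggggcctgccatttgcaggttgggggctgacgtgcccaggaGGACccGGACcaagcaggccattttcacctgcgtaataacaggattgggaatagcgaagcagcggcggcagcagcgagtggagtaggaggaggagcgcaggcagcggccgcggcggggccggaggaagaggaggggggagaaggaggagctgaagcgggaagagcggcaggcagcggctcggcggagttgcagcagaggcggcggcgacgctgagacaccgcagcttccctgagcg
GRIA1, chr5:153490420-153490719, plus strand: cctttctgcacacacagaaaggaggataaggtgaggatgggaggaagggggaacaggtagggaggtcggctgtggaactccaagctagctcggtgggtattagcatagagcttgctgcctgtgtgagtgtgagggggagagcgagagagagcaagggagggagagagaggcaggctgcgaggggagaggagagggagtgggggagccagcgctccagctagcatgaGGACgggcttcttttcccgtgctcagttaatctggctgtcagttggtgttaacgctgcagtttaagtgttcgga
SIX2, chr2:45009403-45009702, minus strand: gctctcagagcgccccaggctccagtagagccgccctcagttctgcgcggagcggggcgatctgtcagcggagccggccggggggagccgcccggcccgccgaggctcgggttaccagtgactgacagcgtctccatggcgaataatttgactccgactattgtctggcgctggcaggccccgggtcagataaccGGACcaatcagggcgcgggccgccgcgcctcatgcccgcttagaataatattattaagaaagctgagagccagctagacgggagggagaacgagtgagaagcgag
RYR3, chr15:33310717-33311016, plus strand: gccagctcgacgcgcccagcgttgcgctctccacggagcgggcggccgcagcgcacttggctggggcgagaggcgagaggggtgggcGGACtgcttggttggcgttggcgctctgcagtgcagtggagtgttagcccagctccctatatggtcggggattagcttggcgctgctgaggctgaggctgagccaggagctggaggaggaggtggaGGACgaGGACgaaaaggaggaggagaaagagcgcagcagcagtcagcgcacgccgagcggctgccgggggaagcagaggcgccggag
The region over the SOX2 window shared 94 bases with it and had a score of 68.2. The region at PTPRZ1 shared 198 bases (score 57.5), the one at SIX2 shared 199 (30.6), and those at RTN1 (43.5), GRIA1 (41.2) and RYR3 (28.7) covered all 300 bases. In all, 524 of the regions (4.24%) overlapped 567 windows of 516 genes on the same strand. GGAC, searched on both strands, was in 91.4% of these windows and in 87.4% of all 35116 windows. GGACT, which contains GGAC, was in 45.3% and 44.2%. A match is a description of the letters only, and the sequence under regions away from gene starts was not read here.

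Some lists went against their labels. Of OVCAR8 knockdown peaks, a mean of 95.9% overlapped a SKOV3 control peak and 69.3% an OVCAR8 control peak. Of SKOV3 knockdown peaks, 56.5% overlapped a SKOV3 control peak and 81.9% an OVCAR8 control peak. All 8 ovarian lists were excluded against alike, so which of them carries which name does not alter the membership of the regions. The RKO knockdown list also stood apart. The share of regions found in no other group was 36.4% there, against 20.6% in RKO control, 11.4% in LOVO knockdown and 12.3% in LOVO control. It was 0.4% and 0.502% in OVCAR8 knockdown, 10.7% and 11% in OVCAR8 control, 3.34% and 3.74% in SKOV3 knockdown and 16.1% and 16.5% in SKOV3 control, where each list was compared with 10 others because its own replicate was left out. Of all RKO knockdown regions, 45.1% overlapped a peak of RKO control, 43.0% a peak of LOVO control, and 39.8% and 40.0% a peak of the SKOV3 controls.

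Peaks on epithelial marker genes were few in both RKO lists. None of the 10 pan-epithelial genes had an RKO knockdown peak on its own strand. In RKO control 2 of them did, with 4 peaks in all, on the keratin genes KRT8 and KRT18, which code for the keratins of simple epithelia. EPCAM, CDH1, KRT19, GRHL2 and ELF3 had none in either RKO list. In LOVO knockdown 7 genes had 23 peaks and in LOVO control 6 had 22. The only RKO knockdown peak within the body of a pan-epithelial gene lay on the opposite strand of CLDN4, a tight-junction claudin (score 5.8, 83 bp). Of 12 intestinal genes 1 had a peak on its own strand in RKO knockdown, against 2 in RKO control, 9 in LOVO knockdown and 11 in LOVO control. CDX2, the intestinal homeobox factor, had 0 peaks in RKO knockdown and 3 in RKO control, 3 in LOVO knockdown and 4 in LOVO control. None of the 10 Muellerian and ovarian genes had a peak on its own strand in RKO knockdown. The same held for both LOVO lists and both OVCAR8 knockdown lists. RKO control and each SKOV3 control list had 1 such gene, and each OVCAR8 control and SKOV3 knockdown list had 2. In the ovarian lists, 1 to 3 pan-epithelial genes and 1 intestinal gene had an own-strand peak. The regions are called by their list and given no cell type. The part that identity of the cells played in any result was not tested. In bulk RNA, fewer cells of a type and less RNA per cell cannot be told apart.

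Neural progenitor and glial genes were the marker list with the largest share of members carrying a region. A region was counted for a gene when it overlapped that gene's body and no other. By this count 7 of 13 genes (53.8%) had one, while over all 19974 protein-coding genes the share was 15.9%. Counting any region on the gene's own strand gave 8 of 13 (61.5%), with 14.6% over all protein-coding genes. For a gene with no strand in the reference tables, that second count took regions on either strand that lay in no other gene. Long genes have more room for peaks: among protein-coding genes of 100 kb and longer the shares were 28.0% and 26.5%. The median neural progenitor and glial gene was 12.2 kb long and 1 of the 13 reached 100 kb. The list was drawn up with results of these data known, and its share is not independent evidence.

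SOX2 is a transcription factor of neural stem cells and pluripotent cells. It lies inside the non-coding gene SOX2-OT, so its peaks are missing from the count by a single gene body. A plus-strand region at chr3:181711881-181714034, 2154 bp wide, covered most of the 2.51 kb gene with a score of 68.2. On the minus strand opposite it lay regions of 309 bp (score 19.3) and 150 bp (score 5.8). SOX2 had 1 peak on its own strand in RKO knockdown and 0 in each of the other 11 lists. SOX2-OT itself carried 18 regions that lay in no other gene, all on the plus strand, in 15 clusters over 82.4% of its 686 kb. Its own-strand count, which includes regions shared with other genes such as SOX2, was 22.

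OLIG1 and OLIG2 are neighbouring basic helix-loop-helix factors of the oligodendrocyte lineage on chromosome 21. OLIG2 had plus-strand regions of 818 bp (score 18.7) and 658 bp (score 43.5) and a minus-strand region of 156 bp (score 9.17). OLIG1 had 1 plus-strand region of 1658 bp (score 15.6) and minus-strand regions of 191 and 690 bp (both with a score of 11). Each gene had 3 RKO knockdown peaks and 0 in every other list. PAX6, a factor of eye and forebrain, had 1 region of 330 bp (score 6.5) and no peak in any other list.

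PTPRZ1, a receptor tyrosine phosphatase of glia and their progenitors, was the member of the list with most regions. It held 23 peaks in RKO knockdown and 0 in the other 11 lists. Of these, 19 were on the gene's strand, and they ran over 92.2% of its 189 kb. The score was 74.9 in a region of 2363 bp at chr7:122011666-122014028 and 63.3 in its neighbour at chr7:122010203-122011420. NES, the intermediate filament protein nestin, was not restricted to RKO knockdown. It had 8 peaks there, 4 of them in no other list, against 5 in RKO control, 1 in LOVO knockdown, 3 in LOVO control, 7 and 5 in OVCAR8 knockdown, 0 and 0 in OVCAR8 control, 0 and 0 in SKOV3 knockdown, and 5 and 5 in SKOV3 control. SLC1A3, the glial glutamate transporter, had 1 small region (155 bp, score 3.92). HES5 and FABP7 had no peak on their own strand in RKO knockdown, and none was assigned to GFAP or SOX10. A region over GFAP (score 11.3) also lay in DNAAF19 and FAM187A, and one over SOX10 (score 10.4) also lay in POLR2F. Summed over the 13 genes, there were 40 own-strand peaks in RKO knockdown and 0 to 7 in the other lists. For OLIG1 and OLIG2, which have no strand in the reference tables, this sum takes peaks on both strands. Genes with a peak numbered 8 in RKO knockdown and 0 to 2 elsewhere.

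**Figure D1:**
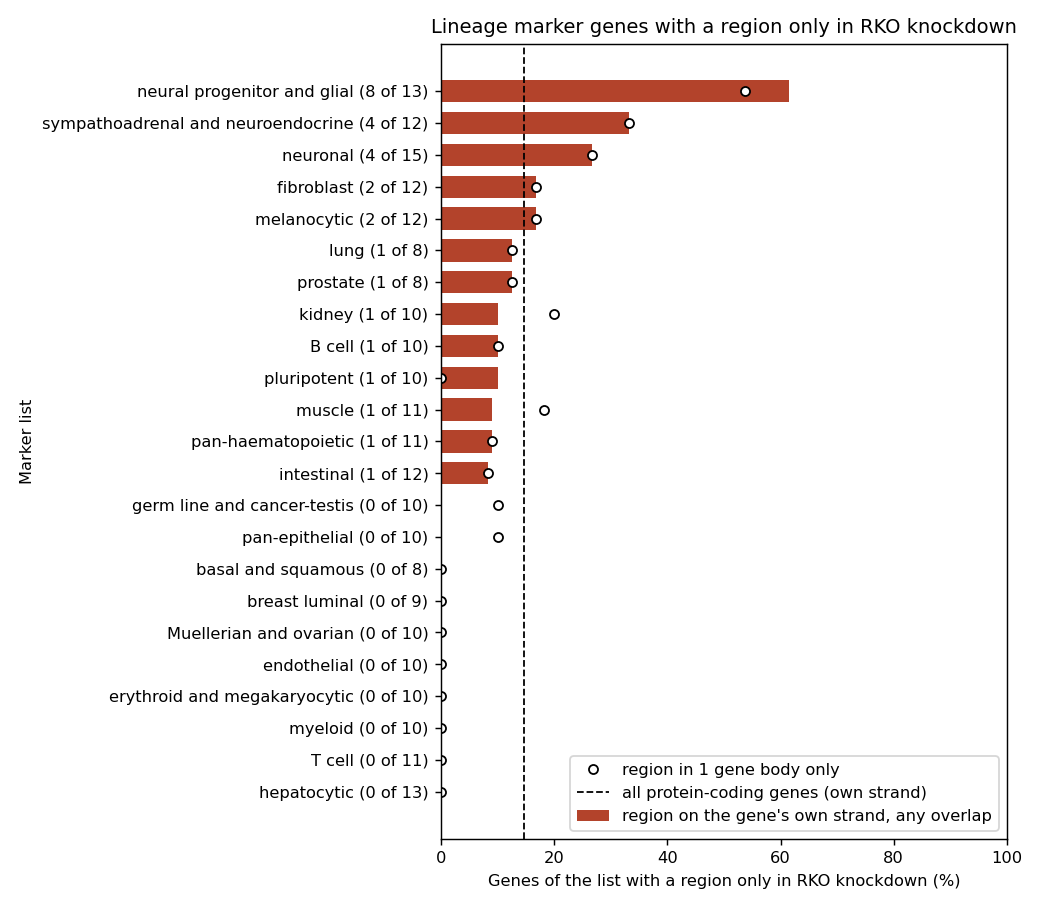
Share of the genes of 23 marker lists that carried a region found only in RKO knockdown (percent, horizontal axis), with the number of genes by the own-strand count in brackets. Bars count any region on the gene's own strand, or on either strand within that gene alone where the reference tables give it no strand. Open circles count regions in 1 gene body only. The dashed line is the own-strand share over all protein-coding genes (14.6%). The neural progenitor and glial list stood at 61.5%.

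The other neural lists held fewer. Of 15 neuronal genes, 4 had a region (26.7%), and 10 of the 15 are 100 kb or longer, for which the share over all protein-coding genes was 28.0%. MAP2, a microtubule-associated protein of dendrites, had 12 regions among 13 peaks in RKO knockdown, against 1 peak in RKO control and 0 in the other 10 lists. The widest of these was 2880 bp with a score of 28.3. ELAVL3, an RNA-binding protein of neurons, had 5 regions on the minus strand with scores of 8.01 to 33.5, and no peak elsewhere. Its relative ELAVL4 had 1 region (score 6.43). GRIN2B, an NMDA receptor subunit, had 2 regions among 7 peaks, while LOVO knockdown also had 7 peaks there and LOVO control 11. SYN1, SNAP25, SYT1, STMN2, RBFOX3, GAD1 and DCX had no such region.

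Of 12 sympathoadrenal and neuroendocrine genes, 4 had a region (33.3%), against 15.9% of all protein-coding genes. The median length of the 12 genes was 9.59 kb. INSM1, a zinc-finger factor of neuroendocrine cells, had 2 (scores 10.6 and 18.0). MYCN had 1 in its body alone (1084 bp, score 11.3) and a second shared with MYCNOS (383 bp, score 11.2). The receptor kinase ALK had 1 (score 14.5) and the synaptic vesicle protein SYP 1 (score 11.3). PHOX2A, HAND2, TH, DBH, CHGA, CHGB and ISL1, which mark the sympathoadrenal and neuroendocrine programme more strictly, had none.

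Lists of other lineages stayed near or under the background. Melanocytic genes with a region were EDNRB and PAX3 (2 of 12), and fibroblast genes were PDGFRA and PDGFRB (2 of 12). Kidney genes were SIX2 and SLC12A1 (2 of 10), the region of SLC12A1 being on the opposite strand. SIX2, a nephron progenitor factor, had 2 regions of 768 and 1304 bp with scores of 26.2 and 30.6 and no peak elsewhere. Muscle genes were NKX2-5 with 2 regions and TTN with 3, those of TTN on the opposite strand. Single genes had a region in the B cell (EBF1), pan-haematopoietic (RUNX1), lung (FOXJ1) and germ line (STAG3, opposite strand) lists. Hepatocytic, T cell, myeloid, erythroid, endothelial, breast luminal, and basal and squamous lists had 0. The pluripotent list had 0 by single gene body and 1 by own strand, which was SOX2. Over all 239 marker genes of the 23 lists, 30 (12.6%) had a region.

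Over the whole genome, 8417 regions lay in a single gene body and fell in 3949 genes. Most of these genes, 2448, had 1 region, 1195 had 2 to 4, 219 had 5 to 9, and 87 had 10 or more. Those 87 genes held 1627 regions (19.3%), and their median length was 324 kb, against 39.9 kb over all 3949 genes. The 25 genes with most regions held 806 (9.58%) and had a median length of 555 kb. Of the 3949 genes, 1306 had no peak in any other list. Among all 9311 genes with an RKO knockdown peak, the share with none elsewhere was 14.1%.

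ADARB2 is a brain-expressed member of the adenosine deaminase family acting on double-stranded RNA, with no known editing activity of its own. It had 87 peaks in RKO knockdown and 0 in the other 11 lists, all 87 on the gene's own minus strand and spread over 99.0% of its 560 kb. Its region at chr10:1657460-1658704 had the highest score of all 12371, at 79.6 over 1245 bp, while the median score of the gene's regions was 8.24. They formed 13 clusters, where a cluster is a run of regions on the same strand with gaps of 10 kb or less, and the largest held 31 regions over 71.3 kb. That cluster was also the largest of the list.

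**Figure D2:**
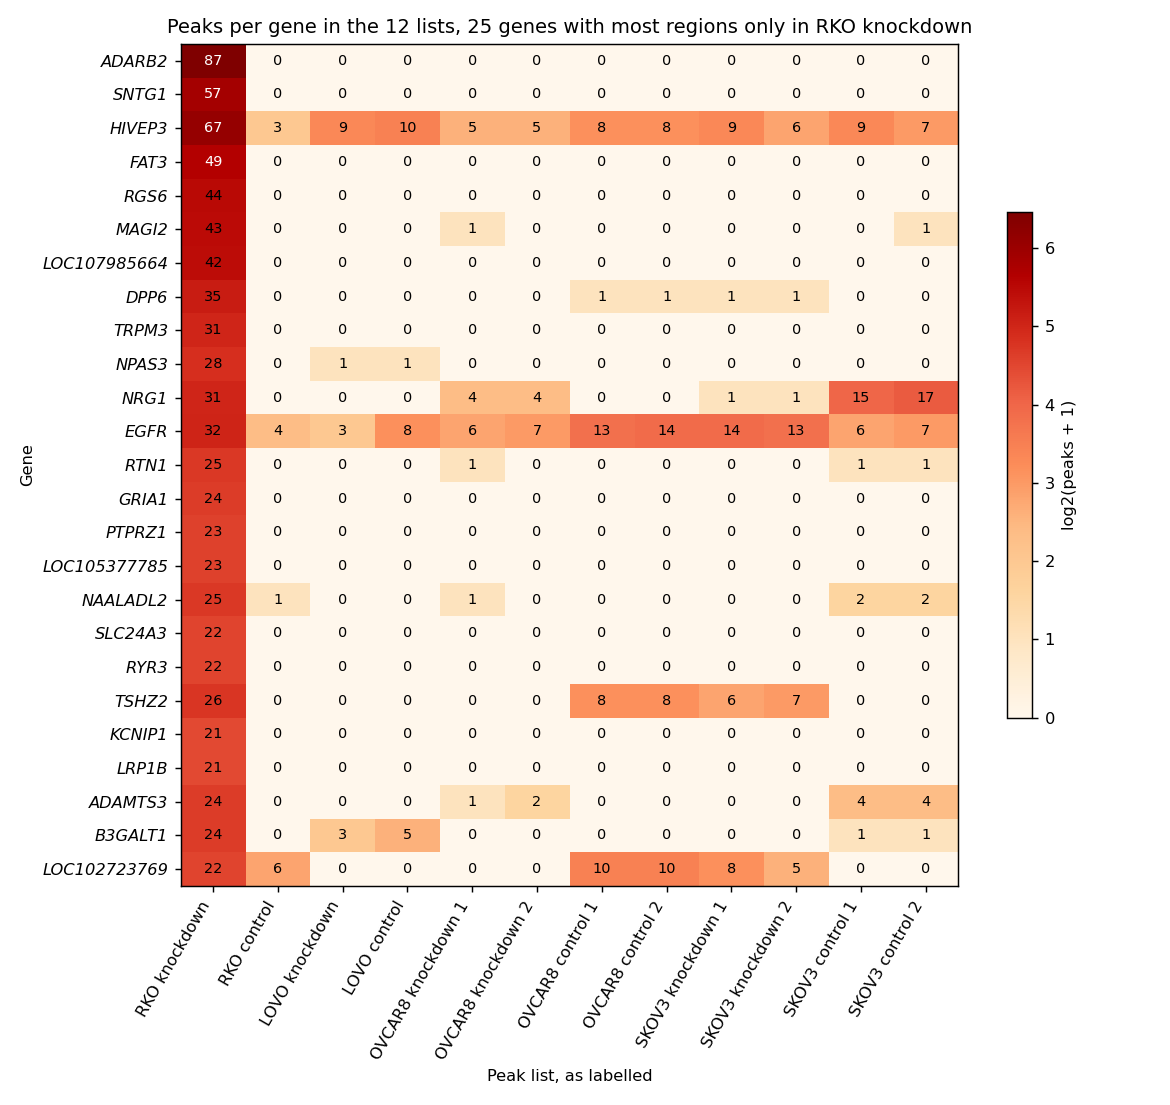
Peaks lying in the body of each of the 25 genes with most regions found only in RKO knockdown (rows), in each of the 12 lists (columns, as labelled; colour is log2 of peaks plus 1, printed numbers are peaks). The genes were chosen for the leftmost column; ADARB2 has 87 peaks there and 0 elsewhere, while HIVEP3, NRG1, EGFR, TSHZ2 and LOC102723769 have peaks in several other lists.

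Adhesion and guidance genes formed one group among those with many regions. FAT3, an atypical cadherin of neuronal development, had 49 peaks in RKO knockdown and 0 elsewhere, with scores up to 65.9. LRP1B, a giant lipoprotein receptor relative, had 21 and 0. Among 67 axon guidance ligands and receptors, 19 had a region (28.4%). The plexin PLXNA4 led with 18 (highest score 58.8), followed by the ephrin receptor EPHA3 with 10 (55.3) and the semaphorin SEMA6D with 7 (33.1). Of 70 cadherins and protocadherins, 17 had one (24.3%), of which DCHS1 and CDH4 had 8 each. Neither of these was restricted to RKO knockdown. CDH4 had 25 peaks there, against 20 and 23 in OVCAR8 knockdown and 45 and 49 in SKOV3 control. DCHS1 had 11 peaks there, against 4 and 5 in OVCAR8 knockdown and 6 and 6 in SKOV3 control. Teneurins, latrophilins and neurexin-type adhesion genes had 11 of 56 (19.6%), led by NLGN4X with 14, CNTNAP3B with 12 and ADGRL3 with 9. Over all protein-coding genes the share was 15.9%, and over those of 100 kb and longer 28.0%. Median lengths were 54.3 kb for the guidance genes, 55.4 kb for the cadherins and 35.4 kb for the third group, and the part of length was not tested.

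Receptors, channels and their partners formed another. GRIA1 had 24 peaks in RKO knockdown and 0 elsewhere, all on its own strand. The NMDA receptor subunit GRIN2A had 18 regions. The AMPA receptor subunit GRIA3 had 13 peaks in RKO knockdown, none of which overlapped the 14 peaks of RKO control. Over 39 glutamate receptor genes, 10 had a region (25.6%), and 7 of these had no peak in another list. Of all 3174 protein-coding genes with a region, 781 had no peak in another list. The glutamate receptor genes had a median length of 146 kb, and their share of 25.6% was below the 28.0% of protein-coding genes of 100 kb and longer. GABA and glycine receptor genes had 2 of 23 (8.7%). Of 116 voltage-gated channel genes, 25 had a region (21.6%), against 15.9% of all protein-coding genes. KCNQ1 had 18 regions in 1 cluster of 31.1 kb, all on the minus strand. The gene is known to be transcribed from the plus strand, so these are antisense to it. KCNC1 had 7. RYR3, an intracellular calcium release channel, had 22 peaks and TRPM3, a cation channel, 31, all in no other list. KCNIP1, a calcium-binding partner of potassium channels, had 21, SLC24A3, a sodium, potassium and calcium exchanger, had 22, and DPP6, an auxiliary potassium channel subunit, had 34 of 35.

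Signalling and scaffold genes included SNTG1, a syntrophin found in neurons, with 57 peaks in RKO knockdown and 0 elsewhere. RGS6, a regulator of G-protein signalling, had 44 and 0. MAGI2, a synaptic scaffold, had 43 peaks in its body alone, and single such peaks in 1 OVCAR8 knockdown list and 1 SKOV3 control list. Its own-strand counts, which include peaks shared with other genes, were 45 in RKO knockdown, 2 and 1 in OVCAR8 knockdown and 1 and 2 in SKOV3 control. Its regions lay in 25 clusters, the most of any gene. RTN1, a reticulon of neurons, had 24 regions among 25 peaks. NAALADL2 had 23 among 25 peaks. NRG1, a growth factor ligand of ERBB receptors, had 25 regions among 31 peaks, against 0 in RKO control, LOVO knockdown and LOVO control, and 15 and 17 in SKOV3 control. ADAMTS3, a procollagen protease, had 20 among 24 peaks, and B3GALT1, a galactosyltransferase, had 20 among 24.

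EGFR, the epidermal growth factor receptor, was unlike these. It had 32 peaks in RKO knockdown against 4 in RKO control, and 3 to 14 in the other lists. Of its 25 regions found only in RKO knockdown, 19 lay on the strand opposite to the gene and 6 on its own strand.

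Transcription factor genes included HIVEP3, a large zinc-finger protein, with 67 peaks in RKO knockdown, 3 in RKO control and 5 to 10 in the other lists. Of the 67, 57 were in no other list, and 24 of them made a cluster of 91.6 kb. NPAS3, a basic helix-loop-helix factor of brain, had 27 regions among 28 peaks. TSHZ2 had 22 among 26, with 8 and 8 peaks in OVCAR8 control. In the SOX, PAX, FOX and GATA families, 21 of 81 genes had a region (25.9%), against 15.9% of all protein-coding genes, led by SOX5 with 16, SOX6 with 8 and SOX11 with 4. SOX11, a factor of immature neurons, reached a score of 60.3. HOX genes, which pattern the body axis, had 10 of 39 (25.6%), with a median length of 3.79 kb. HOXD11 had 6 regions (highest score 51.7), HOXD10 had 2 (36.7) and HOXB8 had 2 (11.3). Genes with a ZNF symbol, among them non-coding ones such as ZNF496-DT, had 184 of 684 (26.9%). Of these, 27 had no peak in another list, against 781 of the 3174 protein-coding genes with a region. ZNF genes with any peak numbered 438 in RKO knockdown, 371 in RKO control and 247 to 389 in the other lists. Collagen genes, with a median length of 145 kb, had 10 of 44 (22.7%), below the 28.0% of genes of 100 kb and longer, with 7 regions in COL16A1, 6 in COL20A1 and 5 in COL4A1.

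**Figure D3:**
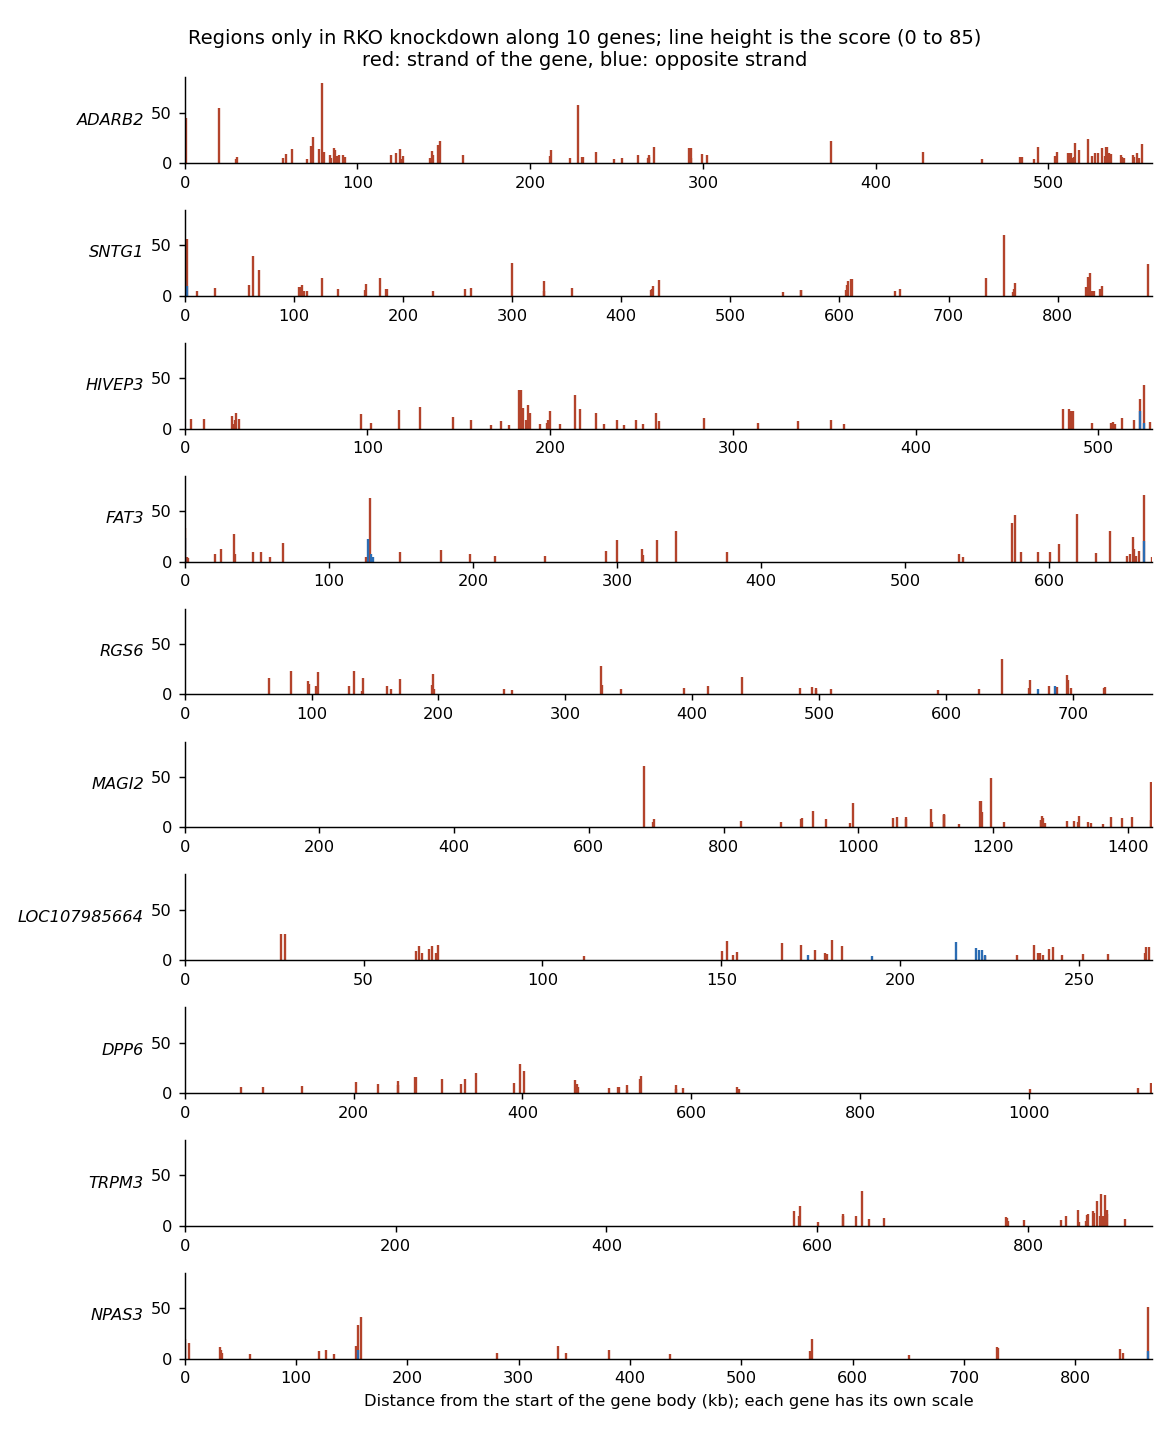
Position of the regions found only in RKO knockdown along the 10 genes with most of them, as distance of the region midpoint from the gene start (kb, own scale for each gene). Line height is the score, and colour gives the strand (red, strand of the gene; blue, opposite strand; for SNTG1 and FAT3, which have no strand in the reference tables, the strand with most regions was taken as the gene's). Regions shared with another gene are not drawn. In MAGI2 and TRPM3 the first region drawn lies 683 and 578 kb from the gene start, while in ADARB2 and FAT3 regions begin within 1 kb of it.

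Within genes the regions were spread in runs. In all there were 5748 clusters, a mean of 1.46 and a median of 1 per gene. Of these, 4294 (74.7%) were single regions, and 148 held 5 or more. After the largest in ADARB2 and that of HIVEP3 came LOC102723769 (20 regions over 42.9 kb), a second run in ADARB2 (18 over 36.0 kb), KCNQ1 (18 over 31.1 kb) and TRPM3 (14 over 28.0 kb). In MAGI2 and TRPM3 no region in that gene alone lay in the first 683 and 578 kb from the annotated start. Regions shared with another gene, which raise the own-strand counts from 43 to 45 and from 31 to 39, were not placed. For 4088 regions on the strand of a protein-coding gene, the first 10% of the gene length held 16.7% and the last 10% held 23.4%. For 12366 regions that overlapped another list, these shares were 15.4% and 24.0%. In each 10% between, the shares were 6.7% to 10.3%, against 6.24% to 11.8% for the overlapping ones.

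By score and width, which are the authors' own values, the regions were the lower and narrower ones of their list. The median score was 6.98 (95% interval 6.96 to 7.08) in the regions only in RKO knockdown, against 9.63 (9.52 to 9.74) in the 21644 that overlapped another list. A score of 20 or more was reached by 699 (5.65%), against 3180 (14.7%). The median width was 214 bp, against 345 bp, and 364 regions (2.94%) were 1000 bp or wider, against 2250 (10.4%). Regions in genes with no peak elsewhere had a median score of 7.74 and a width of 245 bp, and those in genes with peaks elsewhere had 6.76 and 199 bp. With the list cut into 10 equal bins by score, the share found in no other list was 47.4% in the lowest bin, 50.6% in the third and 18.2% in the highest. By width, it was 61.6% in the narrowest bin and 14.2% in the widest.

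**Figure D4:**
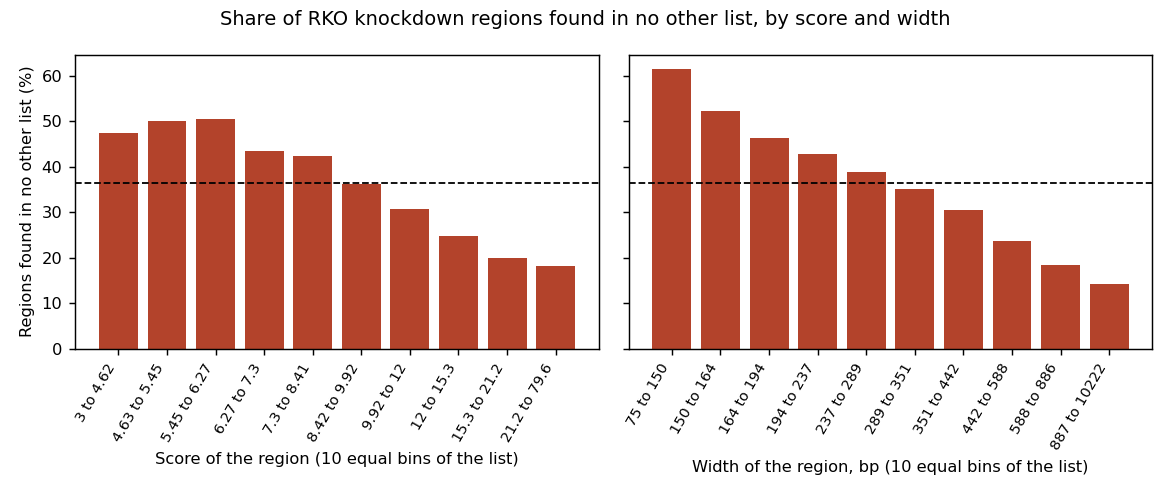
Share of RKO knockdown regions found in no other list (percent), with the list cut into 10 equal bins by score (left) and by width in bp (right). The dashed line is the share over the whole list (36.4%); the share is 18.2% in the highest bin by score and 14.2% in the widest bin.

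The regions with the highest scores included, beside ADARB2, PTPRZ1, SOX2 and FAT3, neighbouring regions in KLHDC8A (both 64.5), a wide one at the SALL3 gene (64.1, 3769 bp) and one at the start of CNTNAP3B (63.8). SALL3 is a zinc-finger developmental regulator. Some regions may be pieces of 1 called peak: 537 of the 12371 (4.34%) share a peak name with another, among them 4 of the 10 in KLHDC8A, 2 of the 3 in OLIG1 and 9 of the 87 in ADARB2. Counted by name, ADARB2 had 82 peaks. At the edge of the rule, 7 regions lay 10 bp or less from a peak of another list, with a median score of 5.78 (3.62 to 10.4), and 14 were left out for an overlap of 10 bp or less, with a median of 4.8 (3.6 to 12). The median distance to the nearest peak of another list on the same strand was 23.1 kb. It was 500 bp or less for 964 regions (7.79%), 10 kb or less for 4499 (36.4%) and over 100 kb for 3473 (28.1%).

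Gene class differed between the sets. By midpoint, 67.7% of the regions lay in protein-coding genes, against 87.4% of the regions that overlapped another list. Long non-coding RNA genes held 11.1%, against 4.72%, and the space between genes held 18.8%, against 5.92%. Read the other way, 64.4% of the list's regions between genes, 57.3% of those in long non-coding RNA genes and 30.7% of those in protein-coding genes were in no other list. Of the 570 long non-coding RNA genes with such a region (3.14% of 18177), 399 had no peak in any other list. For protein-coding genes this was 781 of 3174, and over all genes with a region 1306 of 3949.

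**Figure D5:**
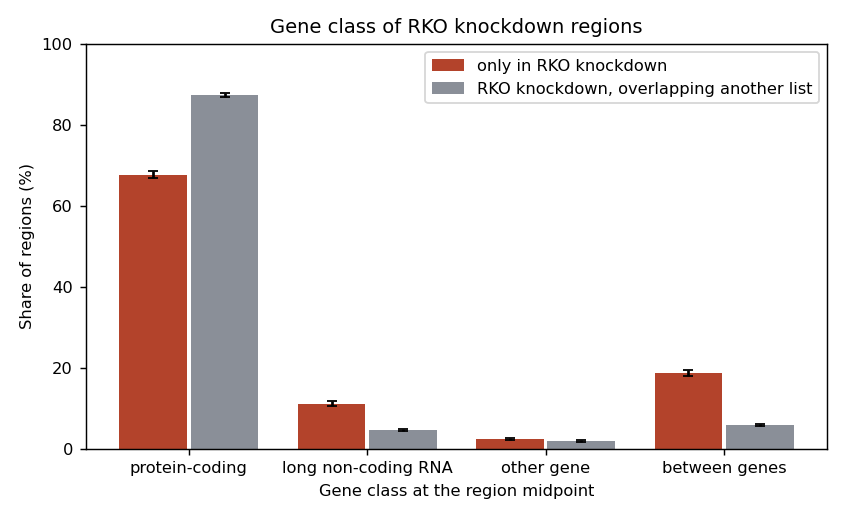
Share of regions by the class of gene at their midpoint (percent), for the regions found only in RKO knockdown (left bars) and those that overlapped another list (right bars). Error bars are 95% Wilson intervals and cover counting error only; the bars between genes stand at 18.8% and 5.92%.

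The long non-coding RNA genes with most regions were LOC107985664 on chromosome X with 42, LOC105377785 with 23 and LOC102723769 with 20. Then came SOX2-OT and LOC124902439 with 18 each, LINC03082 with 15, LOC105372225 with 14, LOC124906307 and LOC105377374 with 12 each, and TMEM161B-DT with 11. Of these 10 genes, LOC107985664, LOC105377785, SOX2-OT, LOC124902439, LINC03082, LOC105372225 and LOC105377374 had no peak in any other list. LOC102723769 had 22 peaks in RKO knockdown, 6 in RKO control and 10 and 10 in OVCAR8 control. Among genes named as LINC, 76 of 2310 had a region (3.29%), and among antisense non-coding genes 92 of 2064 (4.46%), near the 3.14% over all long non-coding RNA genes.

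Between genes, 2232 regions overlapped no gene body and formed 1426 runs with gaps of 10 kb or less, of which 48 had 5 or more regions. The largest held 31 regions at chr9:40867753-40931158 on the minus strand, with scores up to 20.5. The next held 23 at chr2:94503103-94570802 on the plus strand. On chromosome X, a run of 12 regions at chrX:75800518-75823015 and another of 11 at chrX:75919524-75937299 lay on the plus strand beyond the end of LOC107985664, which is annotated on the same strand and ends at position 75793610.

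The strand of the regions differed from that of the rest of the list. Among regions in a single gene of known strand, 4689 of 6431 (72.9%, 71.8% to 74.0%) lay on the gene's strand, against 12918 of 13918 (92.8%) of those that overlapped another list. The opposite-strand shares were 27.1% and 7.18%. The opposite-strand regions had a median score of 6.43, against 7.3 for the 4689 on the gene's strand. In TRIM44 all 19 regions were on the opposite strand, in LOC105372225 all 14, in DRC11 16 of 17 and in PARP11 11 of 17. A peak of the same list faced the region on the other strand in 6.41% of the regions and in 5.91% of those that overlapped another list.

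By chromosome, the share of RKO knockdown regions found in no other list was highest on X (45.5%), 20 (43.2%) and 8 (42.9%), and lowest on 17 (26.3%) and 16 (29.5%).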

How the data were processed

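MeRIP-seq of chromatin-associated RNA had been done on 32 libraries, 16 of them MeRIP, and the 12 deposited peak lists were analysed. The submitters' processing notes name the build hg38 and the tools MACS2 2.2.7.1, HISAT2 2.1.0, Bowtie2 2.4.2 and Trim Galore 0.6.6, without their roles. Each LOVO and RKO group has 1 deposited list, whose score column is explained in no header. In the RKO knockdown list no score was below 3, and the peak names cite replicate 1; how replicate 2 entered is not stated. For OVCAR8 and SKOV3 the authors deposited a fold enrichment (a linear ratio) and −log10 p and q-values per peak. Scores served only to describe or filter peaks within a list. No read totals were at hand, so depth is unknown and intervals (95% Wilson for shares, order statistics for medians) cover counting error only.

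Peaks on chromosomes 1 to 22 and X were merged by strand, which joined none in the RKO knockdown list. A region counted as only in RKO knockdown if no peak of the other 11 lists overlapped it by 1 bp on the same strand. bedtools 2.31.1 gave the same 12371 regions, and the overlap code was tested on simulated intervals. Genes were 59098 entries of the RefSeq table of GRCh38.p14, on the same assembly coordinates as hg38, and 27197 of them (46.0%) have a strand in the reference tables. Where genes overlapped at a midpoint, the order of precedence was protein-coding, long non-coding RNA, other. With 1 list, chosen by its own values, no test was made. The genes named were the 25 with most regions, the 10 long non-coding RNA genes with most, the 10 highest-scoring regions, marker genes with a region and the 3 genes with most per family; other marker genes, runs between genes and genes with most opposite-strand regions were named in addition, after their values were seen. Some genes that this rule names are not reported here. The members and lists were chosen with earlier results of these data known. Alternatives changed the strand rule, the gap, the overlap, the score, the threshold of the ovarian lists, the lists compared, the linking distance and the gene assignment.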

Additional observations from a re-analysis of the deposited data

Results flagged for a closer look

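For the 25 genes with most regions, the difference in peaks between knockdown and control in RKO was set beside that in each other line. Cases are given where every knockdown list of the other line had fewer peaks than every control list. The difference between the lines was not tested, RKO and LOVO have 1 list per group, and the genes were chosen for their RKO knockdown peaks. HIVEP3 had 67 peaks in RKO knockdown and 3 in RKO control, a difference of 64, while knockdown minus control was -1 in LOVO and -3 in OVCAR8. EGFR had 32 and 4 in RKO, against differences of -5 in LOVO and -7 in OVCAR8. B3GALT1 had 24 and 0 in RKO, against -2 in LOVO and -1 in SKOV3. NRG1 had 31 and 0 in RKO, against -15 in SKOV3. ADAMTS3 had 24 and 0 in RKO, against -4 in SKOV3. NAALADL2 had 25 and 1 in RKO, against -2 in SKOV3, and RTN1 had 25 and 0, against -1 in SKOV3. LOC102723769 had 22 and 6 in RKO, against -10 in OVCAR8. TSHZ2 had 26 and 0 in RKO, against -8 in OVCAR8, and DPP6 had 35 and 0, against -1 in OVCAR8. Other lines had more peaks in every knockdown list than in every control list for some of the same genes. In SKOV3, EGFR had 14 and 13 against 6 and 7, TSHZ2 had 6 and 7 against 0 and 0, LOC102723769 had 8 and 5 against 0 and 0, and DPP6 had 1 and 1 against 0 and 0. In OVCAR8, NRG1 had 4 and 4 against 0 and 0, and ADAMTS3 had 1 and 2 against 0 and 0. The lists labelled OVCAR8 and SKOV3 knockdown overlapped more with the control lists of the other ovarian line than with those of their own, so the differences in these lines, as labelled, cannot be told apart from a difference between lines. Of RKO knockdown regions, 45.1% overlapped a peak of RKO control and 43.0% a peak of LOVO control. Whether the differences in RKO, as labelled, reflect the knockdown or a difference between the cells was not tested.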

How the results depend on the processing

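Of 153 alternative values, 128 stayed within the interval of the main value or within 1.5 times of a count, and 25 did not. These values are counts, shares and medians, which have no direction to reverse. Many came from leaving out 1 ovarian list while its replicate stayed, a change that could move them little. The share of RKO knockdown regions found in no other list was 34.4% with overlap on either strand, 33.5% when a peak within 500 bp counted, 40.8% when 50% of the region had to be covered, 34.2% among peaks with a score of 5 or more and 47.4% against the LOVO and RKO controls alone. The median score was 7.31 with the 50% overlap, 7.96 with the score of 5 and 7.19 against the 2 colorectal controls, and the median width 235, 237 and 222 bp. The protein-coding share was 66.2% with either strand, 69.1% with the 50% overlap, 70.4% against the colorectal controls and 66.8% without the 10 genes with most regions, a setting chosen after seeing the data. The long non-coding RNA share was 10.5% with the 50% overlap and 10.2% against the colorectal controls. The share between genes was 19.7% with either strand, 17.9% with the 50% overlap, 18% with the score of 5, 17% against the colorectal controls, 19.5% without the 10 genes and 18% by any overlap of a gene body. Restricted to genes of 100 kb and longer, which leaves 48 of 239 marker genes, 10 instead of 30 had a region, and 1 instead of 7 in the neural progenitor and glial list, where 1 of 13 genes is that long. Leaving out 1 ovarian list at a time gave 12374 to 12515 regions, 36.4% to 36.8% of the list, 3950 to 3998 genes, a median score of 6.98 to 7.08, a median width of 213 to 214 bp, and class shares of 67.7% to 67.9% protein-coding, 11.1% to 11.1% long non-coding, 2.41% to 2.42% other and 18.7% to 18.8% between genes. Joining peaks that share a name, a setting chosen after seeing the data, gave 11939 regions in 3905 genes. The only RKO knockdown list could not be left out. No paired analysis was possible because the results come from no test and RKO has 1 list per group. Read depth, which limits which peaks a caller finds, is unknown for all lists.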
